A study of Mus musculus with 18 samples.

Results

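The 4 mouse genes of the nuclear factor I (NFI) family, Nfia, Nfib, Nfic and Nfix, were followed in sorted cells of the main olfactory epithelium (MOE). They were taken by gene symbol, and each was 1 row of a table of 23847 rows that held 23359 symbols. All 4 passed the filter on low values and were tested. NFI proteins are transcription factors that bind DNA as dimers through a shared N-terminal domain. Their site is a palindrome of the half-site TTGGC and its reverse complement, and a single half-site can also be bound. In other tissues, above all the developing brain, they act in glial and neuronal differentiation and in stem cells of epithelia. In the MOE, Nfia, Nfib and Nfix have been used as genes of the ventral zone, the part of the sheet away from the dorsal roof of the nose. Most olfactory sensory neurons (OSNs) that use a trace amine-associated receptor (TAAR) lie in the dorsal zone, while Taar6, Taar7a and Taar7b are used more ventrally. The comparison here asked how the NFI genes differ between TAAR OSNs and other cells of the same tissue.

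The study sorted fluorescent and non-fluorescent cells and made Smart-seq2 libraries from them, with values deposited as TPM, transcripts per 1000000, a share of each library corrected for gene length. All mice were C57BL/6 per the labels and carried a Cre knock-in in a Taar gene with a Cre-dependent fluorescent reporter, the control groups included. The reporting summary of the paper instead gives mixed strain backgrounds for its mouse lines. The Taar5+ group was 7 libraries of GFP-positive cells from TAAR5-Cre and L10-GFP mice at postnatal day 11 to 14, and its control was 9 libraries of GFP-negative cells of the same genotype and age. The Taar6+ group was 1 library of ZsGreen-positive cells from TAAR6-Cre and ZsGreen mice at postnatal day 16 to 17, with 1 library of ZsGreen-negative cells as its control. Because Cre is driven by a receptor gene, fluorescence marks cells that use or once used that gene, and the control gate can hold any other cell of the dissociated tissue. The labels do not say which libraries came from separate animals, so p-values measure only the spread between libraries. With sorted bulk cells, fewer cells of a type and less RNA per cell cannot be told apart.

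The table keeps no depth, so counting error is unknown. The number of rows above 0 was 9866 to 17808 in Taar5+ libraries and 11352 to 17015 in controls, apart from 5939 in control replicate 2. Of 3204 abundant genes (median TPM of 50 or more), that library listed 639 at 0, against at most 11 in any other control of the Taar5 line. Its Taar values are copies of those of control replicate 1 and were left out. Taar5+ replicate 4, with 9866 rows above 0, listed 39 abundant genes at 0, the most of its group. Taar5+ replicate 5 had the lowest summed Taar TPM of its group (1517, others 4542 to 7804) and the highest sum of odorant receptor genes (5525, others 225 to 1999). The mature OSN markers Omp, Gnal, Cnga2, Cnga4, Adcy3 and Stoml3 summed to 21258 to 28580 TPM in Taar5+ libraries and 13678 to 49107 in controls. The differences of the NFI genes are given below with and without control replicate 2 and Taar5+ replicate 5.

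Nfia lies on chromosome 4 from 97772734 to 98118874 on the plus strand of GRCm38, and Nfib on the same chromosome from 82290173 to 82705750 on the minus strand. Nfic lies on chromosome 10 from 81396186 to 81455635 and Nfix on chromosome 8 from 84699876 to 84800344, both on the minus strand. The promoter sequences of the gene that differed most, Nfix, and of Nfia are shown so that the half-site can be read in them. They are the 250 bases before a RefSeq transcript start on GRCm38.p6, chosen where no GENCODE exon of the gene overlapped. The first, at chr8:84772876-84773125 on the minus strand, held 1 NFI half-site at its end. The second, at chr8:84775829-84776078 on the same strand, also held 1. The third, at chr8:84780083-84780332 on the minus strand, held the homeodomain core TAATTA and no half-site. The fourth, from Nfia at chr4:97581693-97581942 on the plus strand, held neither and started upstream of the GENCODE gene. Capitals mark TTGGC or its reverse complement GCCAA, and TAATTA.
Nfix, innermost start: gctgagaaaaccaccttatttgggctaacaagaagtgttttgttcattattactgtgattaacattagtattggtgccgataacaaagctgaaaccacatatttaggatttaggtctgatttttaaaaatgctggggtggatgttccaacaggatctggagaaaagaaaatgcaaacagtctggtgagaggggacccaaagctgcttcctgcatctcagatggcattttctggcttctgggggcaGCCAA
Nfix, middle start: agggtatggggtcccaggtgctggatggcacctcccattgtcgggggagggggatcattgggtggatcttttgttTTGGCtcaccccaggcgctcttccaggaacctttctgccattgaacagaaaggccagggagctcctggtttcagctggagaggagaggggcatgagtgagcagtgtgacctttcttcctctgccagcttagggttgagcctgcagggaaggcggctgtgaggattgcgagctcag
Nfix, outermost start: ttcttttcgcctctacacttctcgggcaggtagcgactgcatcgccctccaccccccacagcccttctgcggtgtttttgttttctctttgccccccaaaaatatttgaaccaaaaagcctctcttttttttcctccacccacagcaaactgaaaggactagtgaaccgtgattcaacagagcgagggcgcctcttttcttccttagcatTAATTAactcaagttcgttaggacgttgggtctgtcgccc
Nfia: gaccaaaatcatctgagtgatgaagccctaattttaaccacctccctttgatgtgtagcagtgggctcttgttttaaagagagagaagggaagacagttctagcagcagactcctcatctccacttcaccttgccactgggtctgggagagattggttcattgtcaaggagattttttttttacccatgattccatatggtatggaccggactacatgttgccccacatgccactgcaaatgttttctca
With 50 bases after the start included and both strands read, TTGGC was found in 46.7% of 32851 promoters and TAATTA in 5.29%. CCAAT, which overlaps the half-site in GCCAAT, was found in 37.4%. The full palindrome, TTGGC and GCCAA 5 bases apart, was in 12 promoters (0.0365%) and in none of the 6 NFI promoters listed (1 of Nfia, 1 of Nfic and 4 of Nfix). Among promoters of receptor genes, TTGGC was in 302 of 944 Olfr promoters (32.0%) and in 1 of 11 Taar promoters (9.09%). A match of letters is a description and does not show binding.

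In the 9 controls the NFI genes formed an order with Nfix on top. Nfix, the most abundant member, ranged from 17.2 to 81.0 TPM with a median of 35.4 and was the highest of the 4 in 9 of 9 libraries. Nfib ranged from 3.93 to 15.1 TPM with a median of 12, and was above Nfic in 9 of 9 libraries. Nfia (1.61 to 8.91 TPM, median 4.44) and Nfic (0 to 7.58, median 2.60) overlapped, with Nfia higher in 6 of 9. Thus Nfix and Nfib were separated from their neighbours in every control, while the order of Nfia and Nfic changed from library to library.

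In the 7 Taar5+ libraries the order was different. Nfix ranged from 1.02 to 20.9 TPM with a median of 6.68, Nfic from 0.894 to 9.55 with a median of 5.69, Nfib from 0 to 16.9 with a median of 2.22, and Nfia from 0.0745 to 7.16 with a median of 0.886. Nfic was the highest NFI gene in 3 of 7 libraries, replicates 1, 3 and 7, and Nfix in the other 4. Nfib was above Nfic in 2 of 7 libraries, against 9 of 9 controls. Nfia was the lowest in 6 of 7.

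**Figure D1:**
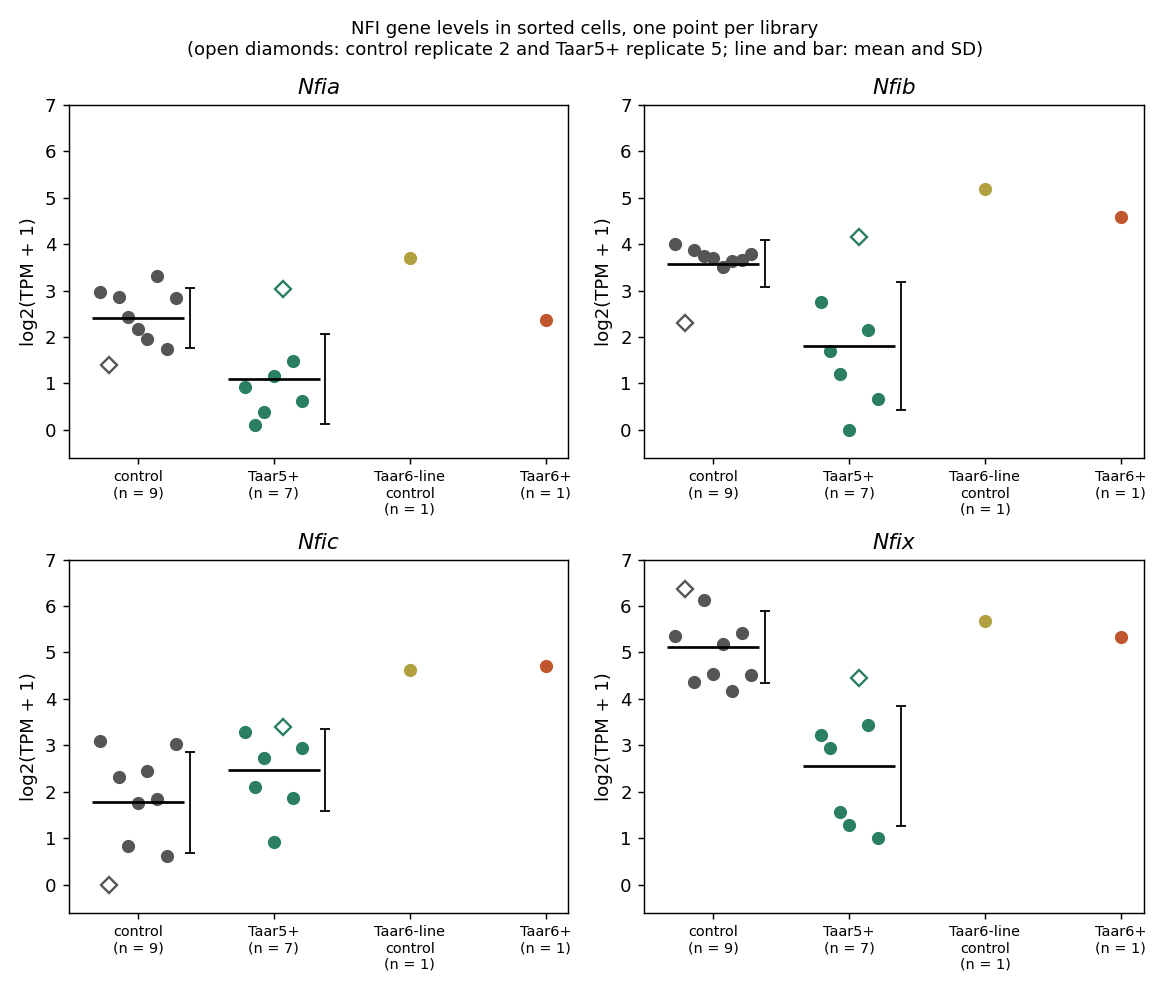
Level of each NFI gene as log2(TPM + 1) in every library, by group. Lines and bars are the mean and SD of each group with more than 1 library, and open diamonds are control replicate 2 and Taar5+ replicate 5. For Nfix 6 of 7 Taar5+ points lie below every control, the exception being the diamond of replicate 5 (20.9 TPM), while the points of Nfic overlap.

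Nfix was the member with the largest difference between Taar5+ cells and controls. By replicate from 1 to 7, Nfix was at 8.33, 6.68, 1.97, 1.45, 20.9, 9.80 and 1.02 TPM in Taar5+ cells. The controls, from 1 to 9, were at 40.1, 81.0, 19.5, 69.2, 22.1, 35.4, 17.2, 42.1 and 21.9 TPM. Thus 6 of 7 Taar5+ libraries lay below the lowest control, and only replicate 5 fell within the control range. Of all 12502 genes tested, 0.248% had at least 6 of 7 Taar5+ libraries below every control. The log2 fold change of Nfix was -2.56 (SE 0.55, 95% interval -3.70 to -1.42), with an unadjusted p = 0.000157 and an adjusted p = 0.0728 in limma, so it missed the threshold of 0.05. By p it ranked 27 of 12502 genes, and 7 among the genes lower in Taar5+ cells.

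Nfib and Nfia were also at lower levels in most Taar5+ libraries. Nfib, by replicate, was at 5.75, 2.22, 1.31, 0, 16.9, 3.45 and 0.582 TPM in Taar5+ cells, and at 15.1, 3.93, 13.6, 12.4, 12, 10.4, 11.5, 11.5 and 12.7 TPM in controls. In 8 of 9 controls it was held in a narrow band from 10.4 to 15.1 TPM, with control replicate 2 alone at 3.93. Taar5+ replicate 5 was above every control, and 5 of 7 Taar5+ libraries were below every one. The log2 fold change was -1.77 (SE 0.56, 95% interval -2.95 to -0.60, unadjusted p = 0.00501, limma adjusted p = 0.304).

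Nfia, by replicate, was at 0.886, 0.0745, 0.309, 1.26, 7.16, 1.81 and 0.548 TPM in Taar5+ cells, and at 6.85, 1.61, 6.30, 4.44, 3.51, 2.87, 8.91, 2.34 and 6.13 TPM in controls. Again 5 of 7 Taar5+ libraries were below every control and replicate 5 was inside their range, while replicate 6 (1.81 TPM) lay above control replicate 2 alone. The share of all genes with 5 of 7 libraries so placed was not counted, for Nfia as for Nfib. The log2 fold change was -1.30 (SE 0.47, 95% interval -2.29 to -0.32, unadjusted p = 0.0123, limma adjusted p = 0.418). Part of the Nfia span is shared with E130114P18Rik on the other strand, which was at 0 to 12.8 TPM in Taar5+ libraries and 0 to 10.5 in controls (log2 fold change 0.03, SE 0.67), and the handling of strand is not stated. Nfix shares part of its span with Lyl1, which was at 0 to 4.57 TPM in controls and 0 to 3.78 in Taar5+ libraries with a median of 0 in each group.

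Nfic did not share this direction. By replicate it was at 8.72, 3.33, 5.69, 0.894, 9.55, 2.63 and 6.71 TPM in Taar5+ cells, and at 7.58, 0, 4.01, 0.788, 2.40, 4.45, 2.60, 0.533 and 7.19 TPM in controls. The groups overlapped over most of their range, and 2 Taar5+ libraries were above every control. The log2 fold change was 0.69 (SE 0.55, 95% interval -0.46 to 1.84, unadjusted p = 0.225, limma adjusted p = 0.947). The interval leaves room for a rise as well as for a small fall.

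In all, 0 of the 4 NFI genes passed the threshold over all genes (background 0.168%, 21 of 12502 genes). At an unadjusted p under 0.05, 3 of 4 were lower (background 5.38%, 672 genes). Their median log2 fold change was -1.54, and that of all genes tested was 0.02. Leaving out control replicate 2 and Taar5+ replicate 5 together left 8 controls and 6 Taar5+ libraries, and Nfix (-2.72, SE 0.49), Nfib (-2.33, SE 0.47) and Nfia (-1.75, SE 0.42) then passed, with limma adjusted p of 0.00423, 0.00884 and 0.0288. In that fit 288 of 11915 genes were lower past the threshold (2.42%), so calls were more frequent throughout. Nfix alone passed without control replicate 2 (adjusted p = 0.0286, background 0.939%) and without Taar5+ replicate 5 (adjusted p = 0.0136, background 0.301%). Nfic was at 0.31 (SE 0.54, adjusted p = 0.874) without both libraries.

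**Figure D2:**
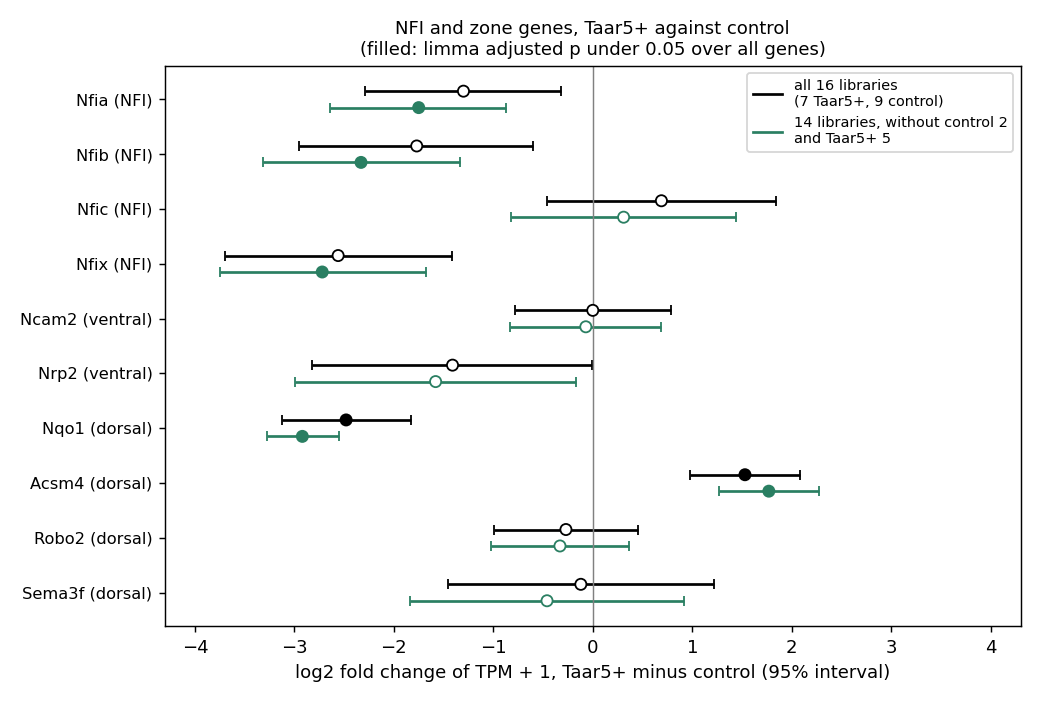
Log2 fold change of TPM + 1 with its 95% interval for the 4 NFI genes and 6 zone genes, for all 16 libraries (black) and without control replicate 2 and Taar5+ replicate 5 (green). Filled points passed an adjusted p of 0.05 over all genes. Nfia, Nfib and Nfix lie left of 0 in both fits (-1.30, -1.77 and -2.56 with all libraries), Nfic lies right of 0 (0.69), and Ncam2 sits at 0.00.

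Because a share of a library moves with every other gene, the NFI genes were next compared with each other inside each library. The ratio of Nfic to Nfix, as a difference of log2(TPM + 1) averaged -3.34 ± 1.70 (SD, n = 9) over controls and -0.09 ± 1.26 (SD, n = 7) over Taar5+ libraries. The difference was 3.25, and 6 of 7 Taar5+ ratios lay above every control (exact two-sided permutation p = 0.000437, adjusted p = 0.00219 over 10 ratios). The ratio of Nfib to Nfic differed by -2.47, with 6 of 7 ratios below every control (exact permutation p = 0.000175, adjusted p = 0.00175). That of Nfia to Nfic differed by -2.0, with 4 of 7 below every control (exact permutation p = 0.00149, adjusted p = 0.00495). Each p is over the 11440 ways to divide these libraries. Without control replicate 2 and Taar5+ replicate 5 the differences were 3.03, -2.64 and -2.07, and all 3 still passed. Within same-numbered libraries, a replicate block, Nfia to Nfic no longer passed (-2.04, exact permutation p = 0.0312, adjusted p = 0.0521). The ratios of Nfic to Nfix and of Nfib to Nfic did pass there. That block flips signs over 7 pairs, so its smallest possible p-value is limited and a miss there decides little.

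Between Nfia, Nfib and Nfix the ratios were closer to each other. Nfia to Nfib differed by 0.47 between groups (exact permutation p = 0.248, adjusted p = 0.248), Nfib to Nfix by 0.78 (exact permutation p = 0.103, adjusted p = 0.115) and Nfia to Nfix by 1.25 (exact permutation p = 0.0524, adjusted p = 0.0749). None of the 3 passed, which does not show that they changed alike.

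The shares of the summed NFI TPM give the same data in another form. In controls the sum was 40.1 to 86.8 TPM, of which Nfix made up 42.7 to 93.6% and Nfic 0 to 15%. In Taar5+ libraries the sum was 3.60 to 54.5 TPM, with 11.5 to 55.4% from Nfix and 14.9 to 75.8% from Nfic. Taar5+ replicates 3 and 7 stood apart, with Nfic at 61.3% and 75.8% of the sum. The only sum inside the control range was that of Taar5+ replicate 5 (54.5 TPM), in which Nfix made up 38.3%.

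**Figure D3:**
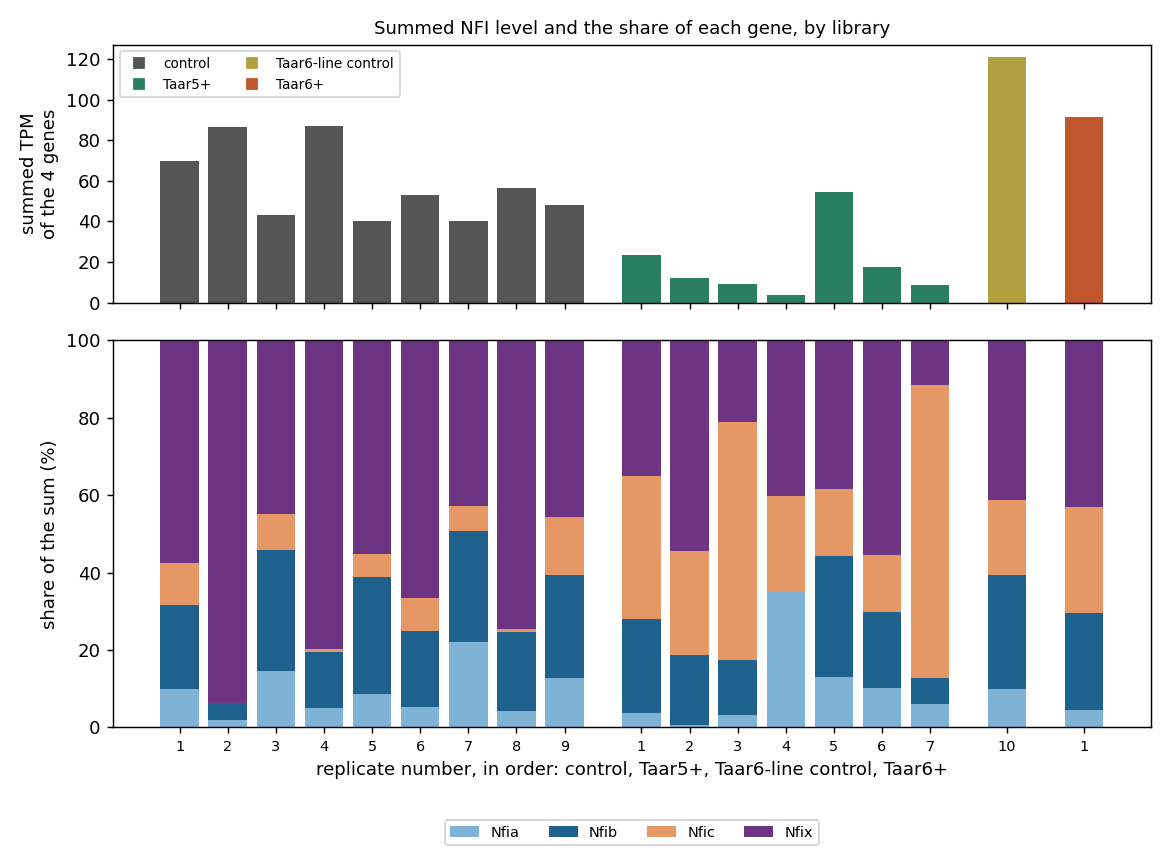
Top, summed TPM of Nfia, Nfib, Nfic and Nfix in each library, with bars coloured by group. Bottom, the share of each gene in that sum in percent. Nfix takes 42.7 to 93.6% in controls, and the orange Nfic part is wider in Taar5+ libraries, up to 75.8% in replicate 7.

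The NFI genes were then set beside genes of the zones. Ncam2, a cell adhesion molecule of ventral OSN axons, ranged from 16.3 to 42.8 TPM with a median of 29.0 in Taar5+ libraries, and from 12 to 55.7 with a median of 33.4 in controls (log2 fold change 0.00, SE 0.37, 95% interval -0.78 to 0.79). Thus Ncam2 showed no difference larger than its interval. Relative to Ncam2 in the same library, Nfix in Taar5+ cells differed from controls by -2.56 (exact permutation p = 0.00253, adjusted p = 0.00634). The values were -1.78 for Nfib (exact permutation p = 0.00455, adjusted p = 0.00909), -1.31 for Nfia (exact permutation p = 0.00830, adjusted p = 0.0138) and 0.69 for Nfic (exact permutation p = 0.0720, adjusted p = 0.0900). With the replicate block the ratios of Nfix, Nfib and Nfia to Ncam2 no longer passed (adjusted p = 0.0521, 0.0670 and 0.0781, exact sign-flip permutation). With so few pairs, that miss does not show that the ratios were unchanged. Without control replicate 2 and Taar5+ replicate 5 all 3 passed. Nrp2, a semaphorin receptor graded towards the ventral side, ranged from 0.0292 to 39.7 TPM in Taar5+ libraries and from 4.3 to 63.4 in controls. Unlike Ncam2, it was lower in Taar5+ cells, the direction of Nfia, Nfib and Nfix (log2 fold change -1.41, SE 0.67, 95% interval -2.82 to -0.01). In limma its unadjusted p was 0.0480 and its adjusted p was 0.701. Only 1 of 7 Taar5+ libraries, replicate 4 (0.0292 TPM), lay below every control for Nrp2. Without that library the log2 fold change was -0.82 (95% interval -1.91 to 0.28).

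Of the dorsal genes, 2 passed the threshold, in opposite directions. Nqo1, a quinone reductase of dorsal OSNs, was at 126 to 675 TPM in Taar5+ libraries with a median of 209 and at 479 to 1742 in controls with a median of 1518 (log2 fold change -2.48, SE 0.31, adjusted p = 0.000312). Acsm4, an acyl-CoA synthetase of the dorsal zone also called O-MACS, was at 759 to 2462 TPM against 247 to 836 (log2 fold change 1.53, SE 0.26, adjusted p = 0.00994). Robo2, an axon guidance receptor (-0.27, SE 0.34), and Sema3f, a secreted repellent (-0.12, SE 0.64), did not pass. The zone genes thus did not divide by zone in their direction.

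The Taar6 line offered a population with more ventral Taar use. Taar6, Taar7a and Taar7b made up 37.3% of the summed Taar TPM in the Taar6+ library and 4.52 to 8.81% in the Taar5+ libraries. Nfix was at 39.3 TPM in Taar6+ cells and 49.8 in their control, a difference of -0.34 in log2(TPM + 1). Nfib was at 22.9 and 35.4 TPM (-0.61), Nfia at 4.18 and 12 (-1.33) and Nfic at 25.0 and 23.6 (0.08). Nfix and Nfib of the Taar6+ library were above all 7 Taar5+ libraries, and Nfia was above 6 of them, with replicate 5 as the exception.

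Between genes of the Taar6 line, the median difference over the 12502 genes was -0.19, with 5% of genes under -1.58. Nfia lay at percentile 6.21 of these differences, Nfib at 17.1, Nfix at 34.6 and Nfic at 77.6. There are no replicates in this line, so no difference was tested. The line also differed as a whole: Nfib and Nfic in both its libraries were above every library of the Taar5 line, Ncam2 was at 136 and 105 TPM against at most 55.7, and Gapdh was at 1.43 and 6.06 TPM against at least 436. Ppia ranged from 971 to 1805 TPM across the Taar5 line, but its value was 0 for Taar6+ cells and 0 for their control. Whether the lines differed in library making or quantification was not tested. Effects of line, reporter, age, other cell types in the sort and such handling cannot be told apart, and this holds for the NFI levels as well. The labels give the lines different ages, whereas the reporting summary of the paper gives 1 older range, in weeks, for both.

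Within the Taar5+ group, no relation of the NFI genes to the use of ventral receptors passed the threshold over the 7 libraries. Against the share of Taar TPM from Taar6, Taar7a and Taar7b, Pearson's r was 0.40 for Nfia, 0.09 for Nfib, -0.27 for Nfic and 0.11 for Nfix (Spearman's rho 0.32, 0.00, -0.04 and 0.14). Exact permutation p-values were 0.389, 0.861, 0.551 and 0.823, all 0.861 after adjustment over the 4 relations (1 for rho). Without the 2 libraries farthest from the median of the NFI gene, r was 0.03, 0.23, 0.23 and -0.00. The shares spanned only 4.52 to 8.81%, so a relation over a wider range could not be seen. With 7 libraries only a strong relation could pass, so these values do not show that there was none.

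Among the members, Nfib and Nfix varied together in Taar5+ libraries, with r = 0.94 and rho = 0.93 over 7 libraries (exact permutation p = 0.00179, adjusted p = 0.0214 over 12 relations; for rho p = 0.00675, adjusted p = 0.0810). Without replicates 4 and 5, which lay farthest from the median of Nfib, r was 0.91. In the 9 controls the same pair had r = -0.56 (exact permutation p = 0.0887, adjusted p = 0.126) and rho = -0.27 (exact permutation p = 0.493, adjusted p = 0.538), with r at -0.22 without control replicates 1 and 2. In controls Nfia and Nfib had r = 0.70 and rho = 0.62 (exact permutation p = 0.0103, adjusted p = 0.0616; for rho p = 0.0857, adjusted p = 0.232), and r was 0.86 without control replicates 2 and 7. The other 9 relations had an adjusted p of 0.0655 or more. The difference between the groups was not tested.

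Over the 15 libraries other than control replicate 2, with group means removed, the genes closest to each member were ranked by Pearson's r. For Nfix they were Fcgrt, the neonatal Fc receptor (0.89), Aldh3b1, an aldehyde dehydrogenase (0.89), and Kcnk1, a potassium channel (0.86). For Nfib they were Gpx1, a glutathione peroxidase (0.95), Hspb1, a small heat shock protein (0.93), and Aldh3b1 (0.92). For Nfia they were Mtfr1 (0.86), the interferon-induced Ifitm2 (0.85) and Ppp1r14a, an inhibitor of a phosphatase (0.84), and for Nfic Rad23b of DNA repair (0.95), Mvb12b of endosomal sorting (0.91) and the zinc finger gene Zfp449 (0.91). These are descriptions of 15 shared libraries among 12501 genes.

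By the same measure the members' own r was 0.81 for Nfib to Nfix, 0.61 for Nfia to Nfib, 0.36 for Nfia to Nfix and 0.06 for Nfic to Nfix. Nfib ranked 18 among the 12501 genes for Nfix, and Nfix ranked 43 for Nfib. Without Taar5+ replicate 5 as well, Nfib to Nfix was at 0.71 and Nfia to Nfib at 0.11, while Nfia to Nfix (-0.12) and Nfic to Nfix (-0.15) turned in sign, and the 3 genes closest to Nfia went to 0.66 to 0.67. Those closest to Nfic stayed at 0.90 to 0.96.

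Markers of other cell types are given beside the NFI genes, since the control gate can hold such cells. The horizontal basal markers Krt5, Krt14, Krt15 and Trp63 summed to 63.9 to 147 TPM in 8 controls and 0 in control replicate 2, and to 0 to 24.0 TPM in 6 Taar5+ libraries and 231 in replicate 5. All 4 were lower in Taar5+ cells and 3 had an unadjusted p under 0.05, but 0 passed the threshold (Krt14 -3.04, SE 0.97, adjusted p = 0.312, and Krt5 -2.64, SE 0.98, adjusted p = 0.436). Without both libraries 3 of them passed, as did 3 NFI genes, in a fit where 2.42% of all genes were called lower. Taar5+ replicate 5 thus had both the highest basal markers and the highest level of all 4 NFI genes of its group, Nfic (9.55 TPM) included. In control replicate 2, where all 4 basal markers were listed at 0, Nfix was at its highest (81.0 TPM). Nfia and Nfib were there at their lowest among controls (1.61 and 3.93 TPM). That library also had the highest sums of sustentacular and gland markers among controls (6166 and 1149 TPM, others at most 556 and 73.8). The part of any of these cell types in the NFI result was not tested.

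**Figure D4:**
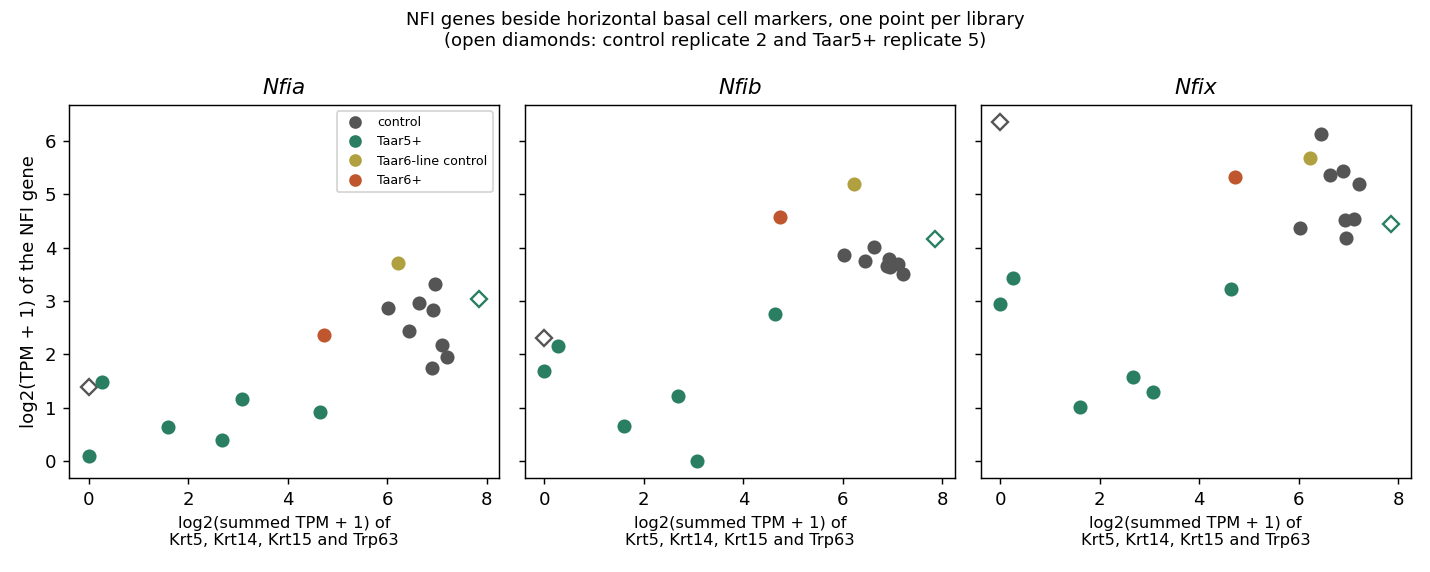
Level of Nfia, Nfib and Nfix against the summed level of the 4 horizontal basal markers, both as log2(TPM + 1), with 1 point per library and open diamonds for control replicate 2 and Taar5+ replicate 5. Taar5+ replicate 5 lies to the right of every control (231 TPM of basal markers), within their range for Nfia and Nfix and above it for Nfib (16.9 TPM), while control replicate 2 lies at 0 on the x axis with Nfix at 81.0 TPM.

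Blood and immune markers summed to 74.3 to 473 TPM in controls and to 0 to 239 in Taar5+ libraries, of which 6 were at 60.6 or less, and Cd74, of antigen presentation, and C1qb, of complement, had the largest differences (-4.09, SE 0.94, adjusted p = 0.105, and -2.39, SE 1.12, adjusted p = 0.692). Microvillar markers summed to 13.2 to 695 TPM in controls and 0.266 to 211 in Taar5+ libraries, led by Ascl3 (-2.81, SE 1.22) and Foxi1 (-2.40, SE 0.95), both transcription factors, with adjusted p of 0.609 and 0.509. In each of these lists, as for the NFI genes, Taar5+ replicate 5 was the highest of its group. Without it and control replicate 2, 2 genes of each list passed, in a fit where 2.42% of all genes were called lower. In the Taar6 line, blood and immune markers summed to 573 TPM in Taar6+ cells and 227 in their control. Sustentacular markers were at 983 and 116 TPM there. Basal markers were at 25.5 and 73.8 TPM, microvillar at 43.6 and 99.5, and progenitor at 33.2 and 106. The part of these cell types in the NFI levels of that line was not tested.

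The other cell type lists reported here held no gene past the threshold, apart from Stoml3 of mature OSNs. Progenitor markers summed to 0.628 to 15.7 TPM in Taar5+ libraries other than replicate 5, which was at 120. In controls they summed to 0 in replicates 2 and 8, 10.9 in replicate 6 and 51.4 to 114 in the others. All 4 genes tested were lower in Taar5+ cells (median log2 fold change -1.16), led by Top2a (-1.61, SE 0.85) and Neurod1 (-1.60, SE 1.07). Without control replicate 2 and Taar5+ replicate 5, 1 of them passed, in a fit where 2.42% of all genes were called lower. With array weights all 4 passed (background 9.18% lower). The part of progenitor cells in the NFI result was not tested. Fibroblast markers were at 4.03 to 345 TPM in Taar5+ libraries and 0 to 293 in controls, led by Col3a1 (-0.99, SE 0.89) and Col1a1 (-0.70, SE 0.99). Sustentacular markers were at 33.1 to 6700 and 18.7 to 6166 TPM, led by Cyp1a2 (0.75, SE 1.17) and Cyp2g1 (0.54, SE 1.17), and gland markers at 2.53 to 3485 and 2.83 to 1149 TPM, led by Bpifb9a (1.86, SE 1.38) and Sox9 (-1.17, SE 0.78). Endothelial markers were at 1.58 to 5.56 and 0 to 32.1 TPM, with Pecam1, the 1 gene tested, at 0.08 (SE 0.61). The largest of these sums in Taar5+ cells came from replicate 5 for all but the endothelial list.

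Among OSN markers, Stoml3, a stomatin-like protein of OSN cilia, was lower in Taar5+ cells (-1.42, SE 0.24, adjusted p = 0.00994), and the cyclic nucleotide channel subunit Cnga4 was at -0.53 (SE 0.32, adjusted p = 0.868). Immature OSN markers summed to 1069 to 1783 TPM in Taar5+ libraries and 299 to 2979 in controls, led by Gng8 (-0.53, SE 0.70) and Gap43 (-0.20, SE 0.50), with 0 of 4 past the threshold.

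Genes tied to NFI in other tissues did not pass the threshold. Of 13 genes known as NFI targets elsewhere, 8 were tested and 0 passed at either the adjusted or the unadjusted 0.05. Of these 8, 6 were lower, with a median of -0.47 against 0.02 for all genes. The list was not divided by whether NFI raises or lowers a gene, so this median has no expected direction. Fabp7, a lipid-binding protein of glia (-1.41, SE 1.06, adjusted p = 0.935), and Mmd2 (-1.30, SE 0.80, adjusted p = 0.879) had the largest differences. Gfap and Gabra6 were listed at 0 in all controls. Of 8 factors that act with NFI elsewhere, 4 were tested and 0 passed (median 0.31), led by Sox9 and by Pax6 (0.53, SE 0.77).

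The receptor choice factors, which include Lhx2, its partner Ldb1 and the Ebf genes, were measured at 704 to 1159 TPM in sum in Taar5+ libraries and 576 to 1412 in controls. None of the 7 passed at the adjusted or the unadjusted 0.05 (median -0.02), and the largest differences were those of Ebf4 (0.65, SE 0.95) and Ldb1 (-0.38, SE 0.44). NF-Y, an unrelated factor that binds CCAAT, had 2 of 3 subunits tested and 0 past the threshold. Nfyc was at -0.64 (SE 0.30, limma adjusted p = 0.701) and Nfyb at -0.35 (SE 0.38, limma adjusted p = 0.955).

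Taar genes served as the check of the sort. Of the 11 olfactory Taar genes other than Taar6, Taar7a and Taar7b, 10 were higher past the threshold, with Taar4 (9.01, SE 0.59, adjusted p = 1.03e-07) and Taar2 (6.84, SE 0.79, adjusted p = 0.000253) leading. Of the 3 used more ventrally 0 passed, with Taar7a at 3.89 (SE 0.81, adjusted p = 0.0674) and Taar6 at 2.28 (SE 0.87, adjusted p = 0.487). The probe list of the paper places Taar6 in both zones, and also Taar7d, which is counted here among the 11. The fits of Taar genes used 8 controls, since control replicate 2 had no Taar values of its own.

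Under other processing the NFI genes kept their directions while their calls moved. With array weights, which give each library a weight by its spread, Nfia, Nfib and Nfix passed, but so did many genes (background 9.18% lower). Nfix alone passed after quantile normalization (adjusted p = 0.0432, background 0.592%) and with a pseudocount of 5 (adjusted p = 0.0458, background 0.0800%). Nfic passed in none of the 26 alternatives that gave it a value.

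**Figure D5:**
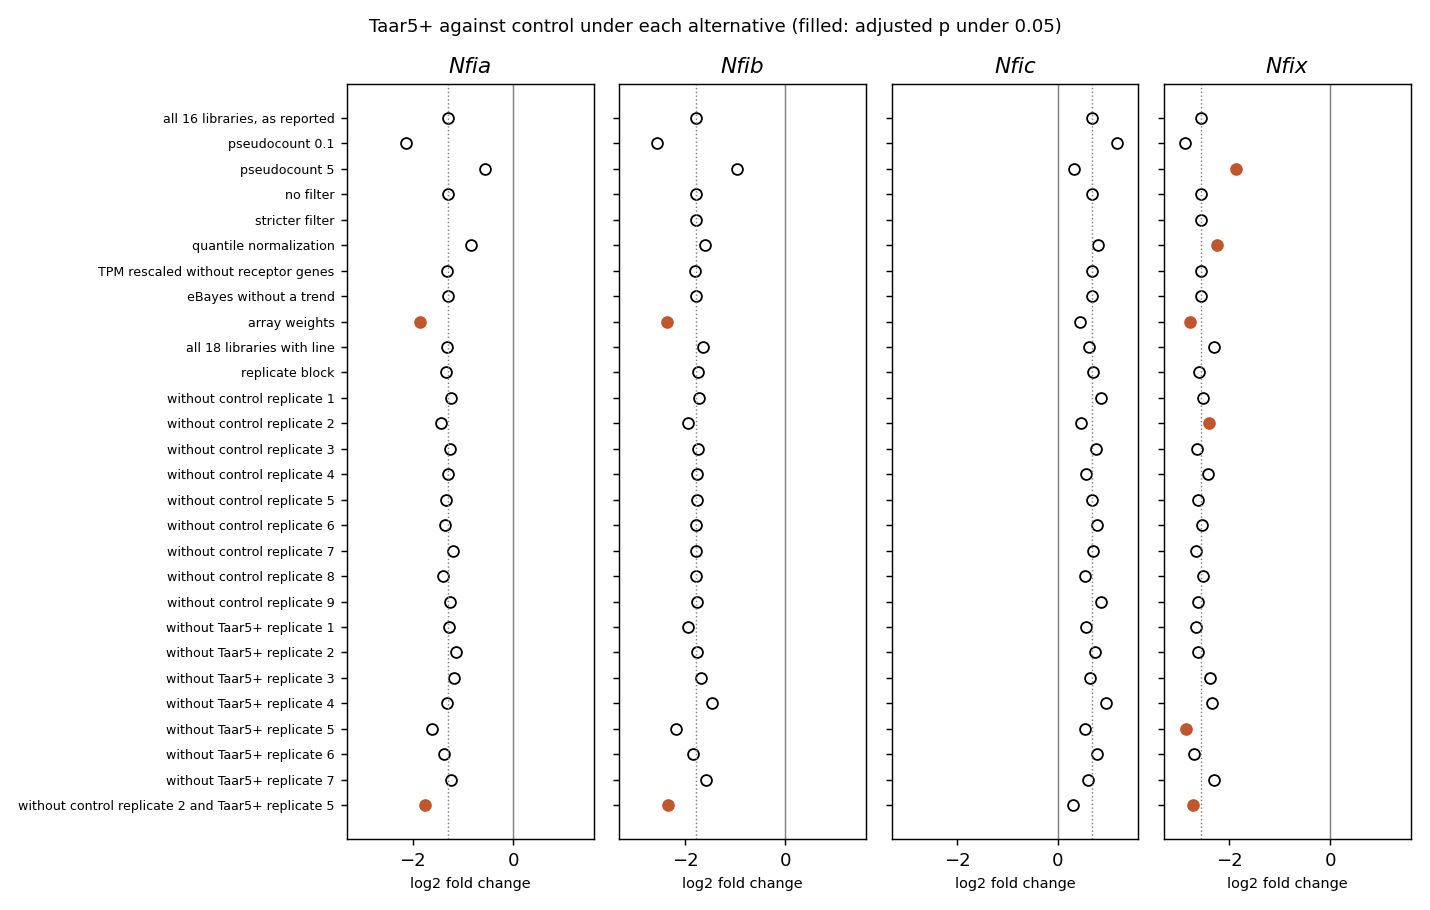
Log2 fold change of each NFI gene, Taar5+ minus control, with all 16 libraries and under each alternative, where filled points have an adjusted p under 0.05. Nfix stays between -2.88 and -1.87 and Nfic between 0.31 and 1.17, and Nfia and Nfib have filled points under 2 alternatives each.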

How the data were processed

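RNA of sorted MOE cells was measured in 18 libraries, 16 of the Taar5 line and 2 of the Taar6 line. The authors made the values with HISAT2 2.1.0 and Cufflinks 2.2.1 after Trimmomatic 0.36, on mm10 (GRCm38), per the submitters' processing notes, and deposited TPM. How strand and reads that map to several genes were handled is not given in the sources used here. TPM keep no depth, so no interval covers counting error, and a listed 0 may come from an estimate that failed. Smart-seq2 adds no molecular identifiers. Of the 50-base words in the members' transcripts, 0% to 1.34% also occurred in other genes and 0 in another member.

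Rows that repeat a symbol (488) were summed. The fit kept genes that reached 1 TPM in 7 or more of the 16 libraries. It used log2(TPM + 1), on which low genes show too small a change, and the lmFit and eBayes functions of limma 3.58.1 under R 4.3.3, with a trend and without a replicate block. P-values were adjusted over all genes by Benjamini-Hochberg, at a threshold of 0.05. The Taar values of control replicate 2, identical to those of replicate 1 for 13 genes, were set to missing. The step was tested on simulated data. Ratios and correlations used exact permutation tests (Python 3.11.15, numpy 2.4.6, scipy 1.17.1). Figures were drawn with matplotlib 3.10.9.

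The members, lists and alternatives were chosen with earlier results of these data known. The genes named were the members, the zone genes, the genes past the threshold and the 2 with the largest absolute change in each list, and the 3 genes most like each member. Alternatives were the pseudocount, filters, normalization, weights, all 18 libraries, a replicate block and left-out libraries. Positions and exons are from GENCODE M21 and promoters from RefSeq. No promoter of Nfib was listed, and protein sequences were not used here. The result of 1 cell type list is not reported here.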

Additional observations from a re-analysis of the deposited data

Results flagged for a closer look

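In groups of 7 or 9 libraries, 30 sets of values were checked for a highest or lowest library whose gap to the next was too large for the range of the group by Dixon's test, and 6 were found, where chance gives about 1.5. Taar5+ replicate 5 stood above the rest of its group for Nfia (7.16 TPM), Nfib (16.9 TPM), the summed NFI genes (54.5 TPM) and Nqo1 (675 TPM). It was also the library with the lowest summed Taar TPM and the highest sums of odorant receptor genes and basal markers in its group. Control replicate 2 stood below the other controls for Nfib (3.93 TPM), and it had the fewest rows above 0. In Taar5+ replicate 4, Nfia made up 34.9% of the summed NFI TPM, in a library whose NFI sum was 3.60 TPM and in which Nfib was listed at 0. The cause was not tested for any of them.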

How the results depend on the processing

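The direction of the difference was kept for all 4 NFI genes in every alternative that gave a value, which was 27 for Nfib and Nfix and 26 for Nfia and Nfic, since the stricter filter left those out. Log2 fold changes ranged from -2.14 to -0.56 for Nfia, from -2.56 to -0.97 for Nfib, from 0.31 to 1.17 for Nfic and from -2.88 to -1.87 for Nfix. With array weights Nfia (-1.85), Nfib (-2.36) and Nfix (-2.78) passed the threshold, and so did Nfix with a pseudocount of 5 (-1.87) and after quantile normalization (-2.24). Without control replicate 2 and Taar5+ replicate 5 together, Nfia (-1.75), Nfib (-2.33) and Nfix (-2.72) passed. Leaving out 1 library at a time gave -1.62 to -1.14 for Nfia, -2.17 to -1.47 for Nfib, 0.47 to 0.95 for Nfic and -2.87 to -2.30 for Nfix, which passed without control replicate 2 (-2.40) and without Taar5+ replicate 5 (-2.87).

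Of all genes, 21 passed with all libraries, 109 after quantile normalization, 1329 with array weights (9.18% of genes tested were called lower) and 337 without both libraries. Without 1 library the count was 16 to 148, with 148 without control replicate 2 and 66 without Taar5+ replicate 5. The median log2 fold change of all genes moved from 0.02 to -0.16 with array weights, -0.17 without control replicate 2, -0.22 without both and 0.11 without Taar5+ replicate 4, and the changes of Nfia, Nfib and Nfix are larger than these shifts.

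With the replicate block, 12 genes passed, none of them an NFI gene (Nfix -2.60, adjusted p = 0.206). Nothing in the labels ties same-numbered libraries, so the numbers were not taken as pairs. The correlation of their deviations was over 0.1 in 5 of 7 pairs (0.03 and -0.01 in the others, at most 0.28). For 3 of 7 the same-numbered control was the closest, a hint of pairing in the data. Whether they are pairs is unknown, and the unpaired tests do not allow for it. Control replicates 8 and 9 have no partner. Sign flips over 7 pairs cannot give a very low p-value, so a miss there decides little. Within same-numbered libraries, by exact sign flips, the replicate block gave -2.04 for Nfia to Nfic, -1.29 for Nfia, -1.68 for Nfib and -2.54 for Nfix to Ncam2, which no longer passed, and 1.26 for Nfia to Nfix and 0.86 for Nfib to Nfix, which then passed. A pseudocount of 5 moved Nfia to Nfib (0.41), Nfia to Nfix (1.31) and Nfib to Nfix (0.90) past the threshold and Nfia to Ncam2 (-0.56) out of it. Without 1 library, Nfia to Nfix ranged from 0.97 to 1.48 and passed without control replicate 7 or Taar5+ replicate 2. The ratios of Nfic to Nfix and of Nfib to Nfic passed in all 20 alternatives run. In the likeness, added after seeing the data, leaving out Taar5+ replicate 5 kept the sign for the 3 genes closest to each member, but turned Nfia to Nfix (-0.12) and Nfic to Nfix (-0.15), and adding control replicate 2 brought Mtfr1 and Nfia from 0.86 to 0.33. The cause was not tested. Depth is unknown, so what it limits cannot be given.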
